A study of Mus musculus with 30 samples.

Results

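Described here are 4 genes of lymphocyte homing to the gut, Itgae, Itgb7, Ccr9 and Madcam1, out of 374 named genes on a custom array of glycan-related genes. They were taken as the probe sets whose RefSeq accession maps to one of these genes, which gave 6 of the 746 probe sets tested. Itgae and Ccr9 have 1 probe set each, and Itgb7 and Madcam1 have 2 each, of which the brighter one stands for the gene. The study hybridised RNA of spleen lymphocytes to 30 arrays, 3 in each of 10 groups, and the mice were C57Bl/6 males, 6 to 10 weeks old. The study's subject, per its title, is how N-linked glycans change on activated T cells, and the labels name no genetic change in any group. There were 4 groups of CD4 and 4 of CD8 T cells: fresh, that is without culture, and purified after splenocytes had been cultured with IL-2 at 4 ng/ml, with IL-2 at 4 ng/ml and IL-4 at 10 ng/ml, or with IL-2 at 4 ng/ml and IL-12 at 5 ng/ml. The remaining groups were fresh B cells and B cells kept in culture with IL-4 at 10 ng/ml and anti-IgM at 10 ug/ml, an antibody that triggers the B-cell receptor. IL-2 is a growth factor of activated T cells, and IL-4 and IL-12 steer T cells toward different cytokine programs.

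The design has limits that hold for every result below. No group was cultured without a cytokine, so the effects of the cytokines and of being in culture cannot be told apart. Whether the T cells received a further stimulus was not given in the sources used here, and a culture time is written for 4 arrays. The longer descriptions of the T-cell arrays name B cells beside the T-cell subset, and each array was taken as the subset in its title. Each array also carries a letter whose meaning is not given. The labels do not tie the 3 arrays of a group to separate animals or wells, so p-values reflect the spread between arrays, which may be only technical. RNA came from bulk cells, in which fewer cells of a type and less RNA per cell cannot be told apart.

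Homing receptors let lymphocytes leave the blood in particular tissues. Itgae encodes the integrin chain alpha E (CD103), and Itgb7 encodes the chain beta 7. The 2 chains form an integrin that binds E-cadherin on epithelial cells and is known from intraepithelial T cells of the gut and from dendritic cells. Beta 7 also pairs with alpha 4, the product of Itga4, and that integrin binds MAdCAM-1, the product of Madcam1, on the endothelium of gut venules. Ccr9 encodes a chemokine receptor for CCL25, which the small intestine and the thymus produce. Naive CD8 T cells of mice are known to carry CD103 and CCR9, and retinoic acid from gut dendritic cells is known to raise alpha 4 beta 7 and CCR9 on T cells.

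The genes lie on different chromosomes of the mouse assembly GRCm38.p6. The RefSeq table places Itgae on chromosome 11 from 73090505 to 73147449, Itgb7 on chromosome 15 from 102215994 to 102233405, Ccr9 on chromosome 9 from 123767211 to 123783457 and Madcam1 on chromosome 10 from 79664559 to 79668542. Ccr9 and Itgb7 both fell in each cultured T-cell subset, and the 250 bases before the start site that the RefSeq promoter table uses are shown for that reason, 5′ to 3′ on the gene's own strand. The stretch of Ccr9 is chr9:123766961-123767210 on the plus strand, and that of Itgb7 is chr15:102231936-102232185 on the minus strand. The Ccr9 stretch ends directly before the gene's span, whereas the Itgb7 stretch lies inside the span given above, so the table's start site is not the outermost start of that gene. Capitals mark E-boxes, the letters CANNTG, which read the same on both strands.
Ccr9: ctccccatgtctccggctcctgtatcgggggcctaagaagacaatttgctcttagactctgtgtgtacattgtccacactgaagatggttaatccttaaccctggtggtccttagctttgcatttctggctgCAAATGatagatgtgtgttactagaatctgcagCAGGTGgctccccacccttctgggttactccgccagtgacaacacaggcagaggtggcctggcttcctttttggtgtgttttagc
Itgb7: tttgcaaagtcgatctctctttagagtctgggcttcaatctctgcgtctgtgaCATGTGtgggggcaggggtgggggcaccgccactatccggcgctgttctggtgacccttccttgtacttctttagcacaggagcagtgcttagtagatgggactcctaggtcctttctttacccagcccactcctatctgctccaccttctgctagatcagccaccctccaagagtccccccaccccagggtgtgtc
Ccr9 has 2 E-boxes and Itgb7 has 1, and the matches do not overlap. E-boxes are common: 66.2% of the 32851 promoter stretches of the same length in the table hold at least 1. A core motif of RUNX factors, TGTGGT, and a half-site of nuclear receptors, AGGTCA, were also searched on both strands. Neither was found in the 2 stretches or in that of Madcam1, and 14.1% and 14.0% of all stretches hold them. By symbol, 3 of the 4 genes matched the promoter table.

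Signals are the authors' deposited intensities on a linear scale in arbitrary units. The program that summarised them, and any scaling of one array to another, was not given in the sources used here. No detection call was used, so a low signal is not shown to lie above background. Levels are compared between groups and not between genes, apart from sums over marker genes, a gene's part in them and remarks on low signals. Changes are on the scale log2(signal + 16), which understates those of dim genes, and come from one limma fit of 10 group means with moderated standard errors (SE). A probe set passed at an adjusted p under 0.05 by the Benjamini-Hochberg method over all 746.

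Array medians ran from 115 to 204 and correlations within groups from 0.841 to 0.937. The medians of the fresh CD4 arrays (148 to 204) lay mostly above those of cultured CD4 arrays (115 to 151), and centring each array on its median moved the share of calls that were higher after culture from 47.2% to 68.4% in CD4 cells. The ratio of 3-prime to 5-prime signal of beta-actin, a measure of RNA integrity, was 1.90 ± 2.15 (SD, n = 9) on fresh and 0.984 ± 0.0677 (SD, n = 21) on cultured arrays. Fresh CD4 array C stood apart at 7.62. Without it the fresh arrays were at 1.18 ± 0.185 (SD, n = 8). The same ratio of Gapdh was 1.73 ± 1.23 (SD, n = 9) on fresh and 0.816 ± 0.0723 (SD, n = 21) on cultured arrays. Fresh CD8 array C, at 1.62 for both genes, had the highest ratios of its group and the lowest signals of Itgae, Itgb7 and Ccr9 in it. The part of RNA integrity in the members' signals was not tested beyond the fits given here. In the CD8 groups, array C of IL-2 with IL-4 and array D of IL-2 with IL-12 carry each other's code in their experiment files. Exchanging them, an alternative chosen after seeing the data, changed no call of the 4 genes. None of the listed CD4 or CD8 T-cell markers is among the named probe sets, so the subsets were not checked against them. All 3 measured B-cell markers (Cd22, Fcer2a, Cxcr5) were higher in fresh B cells than in fresh T cells by the limma test, which 8.18% of all probe sets passed. The arrays were scanned in 5 periods split by gaps of over 40 days. Values within a period are given for some comparisons where it holds both groups. The cultured T-cell arrays of period 1, 2 of CD4 and 1 of CD8 cells, are all of IL-2 with IL-4. Periods 3 and 5 each hold 1 fresh CD4 array and no fresh CD8 array, so that a difference of fresh B from T cells there is against CD4 cells only. In period 5 that array is fresh CD4 array C.

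Itgae, the alpha E chain, was high in fresh CD8 T cells alone among the 10 groups. Its signals were 3165, 2997 and 1981 on the fresh CD8 arrays and 347, 461 and 537 on the fresh CD4 arrays. The lowest fresh CD8 array was far above the highest array of any other group. The share of all probe sets with such a gap was not computed. Between the fresh subsets alone, 13.3% of probe sets had no overlap. The fresh CD8 mean was 2714 ± 641 (SD, n = 3) and the fresh CD4 mean was 448 ± 96.1 (SD, n = 3), a 6.06-fold difference. In the limma fit the difference was 2.55 ± 0.30 (log2 ± SE), with an adjusted p of 7.13e-06. By unadjusted p it was the first of the 746 probe sets, of which 1.61% passed in that comparison. A fit on the 2 fresh groups alone gave the same change with an adjusted p of 0.0830 and called no probe set. With the letter added there as a fixed replicate block, the change did not pass either (adjusted p = 0.166 in limma). In scan period 1, which holds 1 array of each group, the difference was 3.13.

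The Itgae signal was far lower in cultured than in fresh CD8 cells. The cultured CD8 signals were 252, 259 and 374 with IL-2, 300, 218 and 263 with IL-2 and IL-4, and 239, 271 and 197 with IL-2 and IL-12. Every one of the 9 was below every fresh CD8 array, and 18.8% of all probe sets had no overlap in that comparison. The mean of the 9 was 264 ± 50.8 (SD), 10.3-fold below fresh. The limma change was -3.28 ± 0.24 (log2 ± SE), with an adjusted p of 1.56e-10, in a comparison in which 20.8% of probe sets passed. Within scan periods 1 (against IL-2 with IL-4 alone) and 2 the change was -3.33 and -3.23. A two-sided exact permutation test over the 12 arrays gave p = 0.00909, the smallest it allows.

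In CD4 cells Itgae started lower and moved less. The signals were 316, 300 and 370 with IL-2, 195, 187 and 306 with IL-2 and IL-4, and 286, 271 and 352 with IL-2 and IL-12. The lowest fresh CD4 array, 347, lay inside the cultured range. The change of -0.63 ± 0.24 (log2 ± SE) did not pass the limma test (adjusted p = 0.0710), while 21.6% of probe sets did in that comparison. The exact permutation test of Itgae alone gave p = 0.0273. The culture effect of CD8 minus that of CD4 cells was -2.65 ± 0.35 (log2 ± SE), with an adjusted p of 4.57e-05 in limma. Of all probe sets 4.02% passed in that test of the difference, and Itgae had the lowest p. This test and the 2 culture effects share the fresh and cultured arrays.

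After culture the subsets no longer differed detectably in Itgae. The cultured CD8 mean of 264 stood beside a cultured CD4 mean of 287 ± 62.5 (SD, n = 9). The difference was -0.10 (log2), with a 95% interval from -0.46 to 0.25, and 9.65% of probe sets passed in that comparison. B cells were in the same range. Fresh B cells gave 291, 380 and 193, and B cells with anti-IgM and IL-4 gave 196, 311 and 436. Their groups overlap, and the change of 0.10 (log2; 95% interval -0.52 to 0.72) did not pass, beside 9.79% of probe sets that did. Fresh B cells were 1.91 ± 0.26 (log2 ± SE) below the mean of both fresh T-cell subsets, with an adjusted p of 7.50e-06 in limma, and 8.18% of probe sets passed there. That difference was uneven: it was -3.19 against fresh CD8 and -0.64 against fresh CD4 cells, whose arrays overlap with those of B cells.

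**Figure D1:**
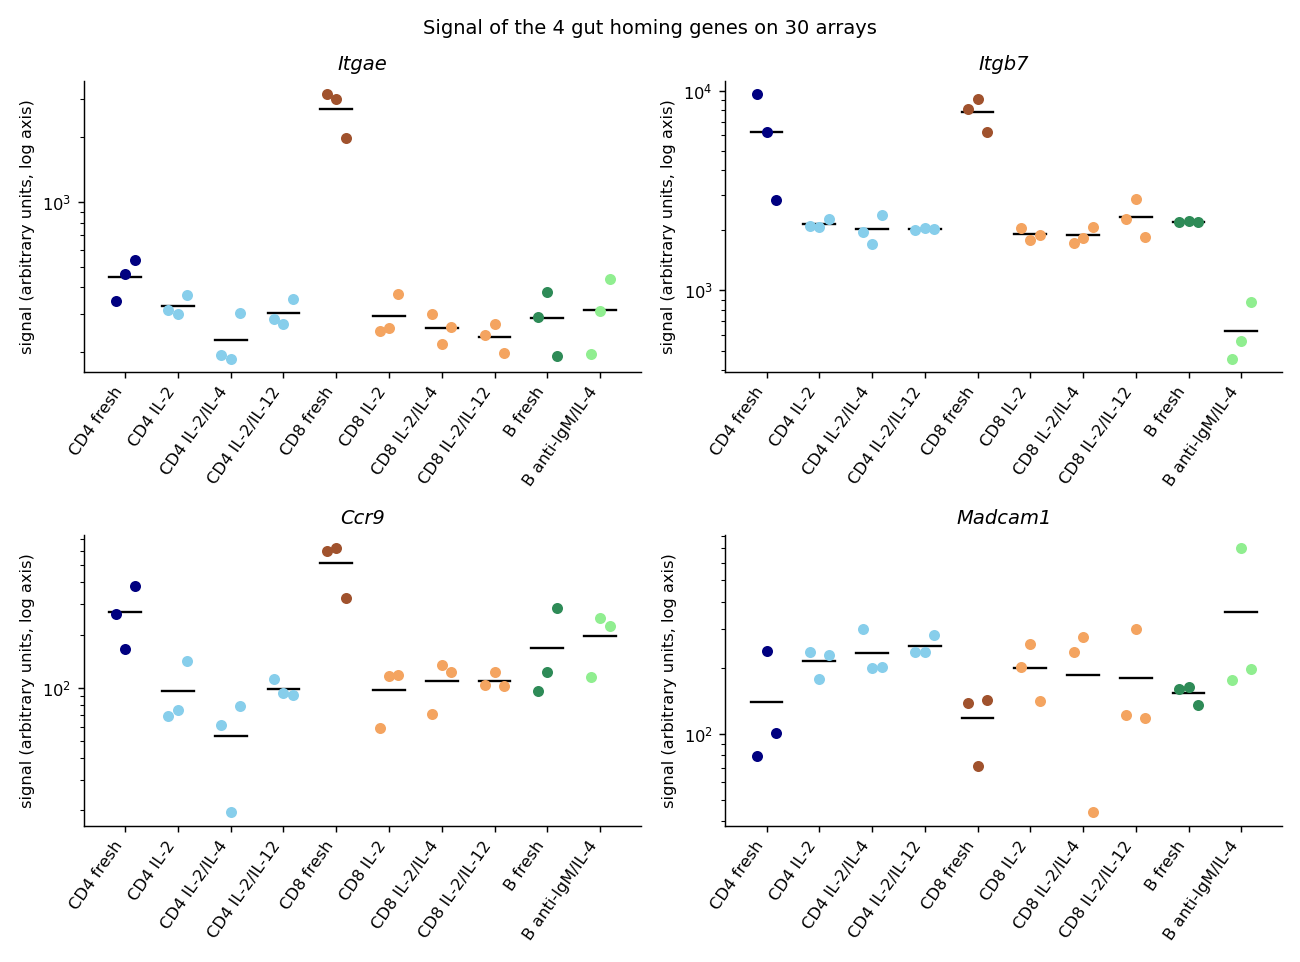
Signal of each gene (main probe set, arbitrary units, log axis) on each of 30 arrays, in 10 groups of 3; points are arrays and black lines are group means. Itgae is high on the 3 fresh CD8 arrays (1981 to 3165) and Itgb7 on the fresh T-cell arrays (2848 to 9584), while the Madcam1 groups overlap widely.

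Itgb7, the beta 7 chain shared by both gut integrins, was high in both fresh T-cell subsets. The fresh CD4 signals were 9584, 6183 and 2848, and the fresh CD8 signals were 8129, 9047 and 6218. The 2 groups overlap, and the difference of 0.48 ± 0.31 (log2 ± SE; adjusted p = 0.614 in limma) did not pass. The lowest of these arrays, 2848, was fresh CD4 array C, the one with the high actin ratio. Without it the difference was 0.0011 (log2).

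Cultured T cells had about the same Itgb7 level in all 6 conditions. The signals were 2108, 2065 and 2282 in CD4 cells with IL-2, 1957, 1714 and 2380 with IL-2 and IL-4, and 2009, 2045 and 2031 with IL-2 and IL-12. In CD8 cells they were 2053, 1783 and 1885 with IL-2, 1736, 1832 and 2081 with IL-2 and IL-4, and 2284, 2876 and 1851 with IL-2 and IL-12. In each subset, none of the 9 cultured arrays reached the lowest fresh array, a lack of overlap found in 17.2% of all probe sets in CD4 and 18.8% in CD8 cells. The CD4 mean fell from 6205 ± 3368 (SD, n = 3) to 2066 ± 190 (SD, n = 9). The CD8 mean fell 3.82-fold, from 7798 ± 1444 (SD, n = 3) to 2042 ± 357 (SD, n = 9).

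In the limma fit the change was -1.42 ± 0.25 in CD4 cells (adjusted p = 0.000130) and -1.92 ± 0.25 in CD8 cells (adjusted p = 1.80e-06). The CD4 change was -1.90 without fresh CD4 array C and -1.98 with the actin ratio as a covariate. With scan day as a block the CD4 change was -1.19 and no longer passed (adjusted p = 0.171). Within scan period 1, whose cultured arrays are all of IL-2 with IL-4, it was -2.38, and the CD8 change was -2.22 and -1.90 within periods 1 and 2. The effects in the 2 subsets differed by -0.51, with a 95% interval from -1.25 to 0.24. The dimmer Itgb7 probe set gave -1.54 and -2.11 in CD4 and CD8 cells. Its group means correlate with those of the brighter one at r = 0.989 over 10 groups that share the arrays.

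Itgb7 alone of the 4 members passed the test in B cells. Fresh B cells gave 2189, 2226 and 2200, and B cells with anti-IgM and IL-4 gave 455, 557 and 873. The groups do not overlap, as in 22% of probe sets. The mean fell 3.51-fold, from 2205 ± 19.0 (SD, n = 3) to 629 ± 218 (SD, n = 3). The change was -1.84 ± 0.31 (log2 ± SE), with an adjusted p of 0.000290 in limma, and the dimmer probe set gave -2.35. Within scan periods 1, 3 and 5, with 1 array a side, it was -2.23, -1.97 and -1.32. On the B-cell groups alone with the letter as a fixed replicate block, the change did not pass (adjusted p = 0.312 in limma). That fit called 1 probe set. Fresh B cells were 1.56 ± 0.27 (log2 ± SE) below fresh T cells, with an adjusted p of 0.000215. Their mean of 2205 stood beside 2066 in cultured CD4 and 2042 in cultured CD8 cells.

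Ccr9, the CCL25 receptor, was brighter in fresh T cells than in cultured ones. Its signals were 601, 626 and 323 in fresh CD8 cells and 261, 167 and 382 in fresh CD4 cells. These groups overlap, and the difference of 0.91 ± 0.42 (log2 ± SE; 95% interval 0.05 to 1.78) did not pass over all probe sets (adjusted p = 0.405 in limma). Cultured CD8 cells gave 59.1, 116 and 118 with IL-2, 71.3, 134 and 124 with IL-2 and IL-4, and 104, 123 and 103 with IL-2 and IL-12. Cultured CD4 cells gave 69.2, 74.8 and 142 with IL-2, 61.7, 19.5 and 78.9 with IL-2 and IL-4, and 112, 93.6 and 90.5 with IL-2 and IL-12. All 9 cultured arrays of each subset were below its 3 fresh arrays, as in the 17.2% (CD4) and 18.8% (CD8) of probe sets without overlap.

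The CD8 mean of Ccr9 fell 4.89-fold, from 516 ± 168 (SD, n = 3) to 106 ± 25.1 (SD, n = 9). The CD4 mean fell 3.27-fold, from 270 ± 108 (SD, n = 3) to 82.6 ± 34.1 (SD, n = 9). In limma the change was -2.10 ± 0.34 in CD8 cells (adjusted p = 3.53e-05) and -1.56 ± 0.34 in CD4 cells (adjusted p = 0.00116). With scan day as a block the CD4 change was -1.46 and did not pass (adjusted p = 0.124). Within scan period 1, against IL-2 with IL-4 alone, it was -2.40, and the CD8 change was -2.82 and -1.96 within periods 1 and 2. The difference between subsets was -0.54 (95% interval -1.54 to 0.46). The cultured means lie below 155, the median of the mean signals of all probe sets, and are not shown to lie above background.

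Fresh B cells gave Ccr9 signals of 95.8, 122 and 284. Activated B cells gave 115, 251 and 224, and the groups overlap (change 0.28, 95% interval -0.58 to 1.15). Fresh B cells were 1.16 ± 0.36 (log2 ± SE) below fresh T cells with an adjusted p of 0.0478 in limma. That call was lost on leaving out 1 array in 19 of 30 cases. Without fresh B array G the difference was -0.87 (adjusted p = 0.261), and without array E it was -1.03 (adjusted p = 0.192). Within scan period 1, which holds 1 fresh array of each T-cell subset, it was -1.89. Within periods 3 and 5, against fresh CD4 cells only, it was -0.40 and -0.41. The fresh CD4 array of period 5 is array C, with the actin ratio of 7.62.

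Madcam1, the endothelial ligand of alpha 4 beta 7, passed no test in these lymphocytes. Its signals were 79.0, 237.7 and 100.2 in fresh CD4 cells, 139, 71.5 and 143 in fresh CD8 cells and 160, 163 and 135 in fresh B cells. Cultured CD4 arrays ran from 178 to 300 and cultured CD8 arrays from 43.7 to 300. Both ranges overlap with the fresh ones. The changes were 0.81 ± 0.42 in CD4 cells (log2 ± SE; adjusted p = 0.187) and 0.51 ± 0.42 in CD8 cells (adjusted p = 0.492) in limma. Centring each array on its median gave 1.12 in CD4 cells with an adjusted p of 0.0415.

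Activated B cells gave Madcam1 signals of 176, 703 and 196. All 3 lie above the fresh B arrays (22% of probe sets had no overlap there), and array H, at 703, is far above the rest. The change of 0.87 ± 0.52 (log2 ± SE; adjusted p = 0.359 in limma) did not pass. Without array H it was 0.26. In the dimmer Madcam1 probe set array H was not high: the activated B signals were 79.7, 59.5 and 62.3. The group means of that probe set lay between 38.7 and 86.1. The ratio of the brighter to the dimmer probe set ran from 0.612 to 18.9 over the 30 arrays, and their group means correlate at r = 0.593. The 2 probe sets thus disagree in pattern.

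**Figure D2:**
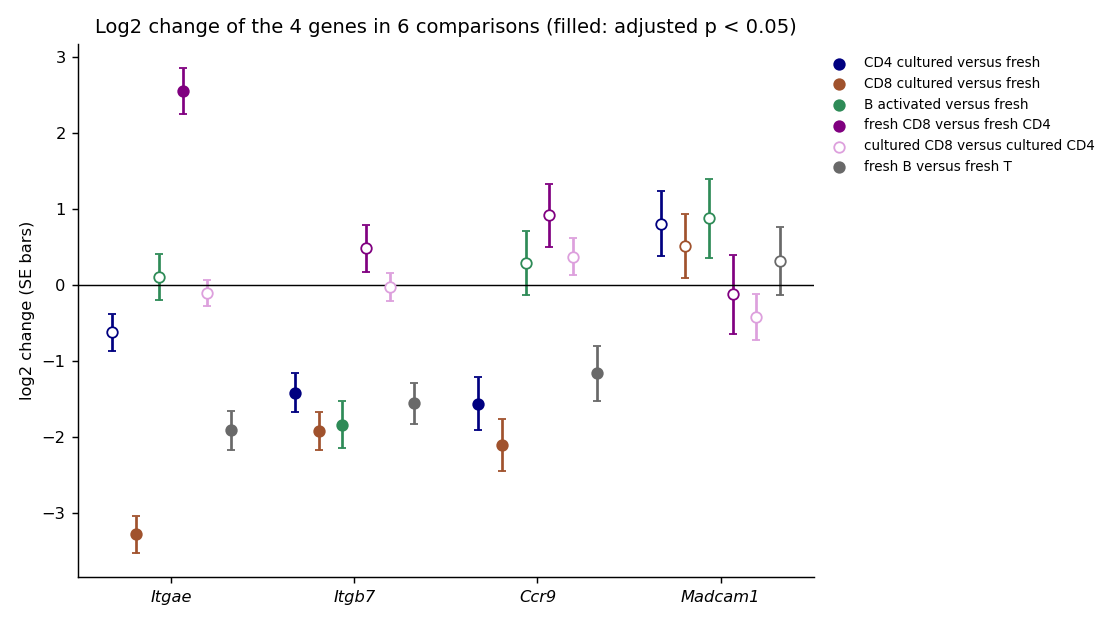
Log2 change of the main probe set of each gene (y axis, bars are SE) in 6 comparisons from the limma fit; filled points passed at adjusted p < 0.05. The culture changes of Itgb7 and Ccr9 lie between -1.42 and -2.10 in T cells, and Itgae has the widest spread, from -3.28 to 2.55.

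The choice of cytokine made no detectable difference to the 4 genes. In CD4 cells the IL-4 arrays had the lowest means of Itgae, 229 ± 66.7 (SD, n = 3), and of Ccr9, 53.4 ± 30.6 (SD, n = 3). Against IL-2 alone the changes were -0.52 ± 0.30 for Itgae (log2 ± SE; adjusted p = 0.673) and -0.74 ± 0.42 for Ccr9 (adjusted p = 0.661) in limma. Their arrays overlap with those of IL-2 alone, and of all probe sets 0.804% passed. CD4 arrays A and B of IL-4 were scanned in period 1, which holds no array of IL-2 alone. Within scan period 2, with 1 IL-4 array and 2 of IL-2 alone, the differences were -0.007 for Itgae and 0.11 for Ccr9. In CD8 cells the same addition changed Itgae by -0.16 (95% interval -0.78 to 0.46) and Ccr9 by 0.16 (95% interval -0.71 to 1.02). There limma called 0 probe sets (0%), also under each alternative fit, and 28 had an unadjusted p under 0.05. Adding IL-12 to IL-2 gave changes between -0.29 and 0.27 for the 4 members over both subsets, none of which passed, and 0.134% of probe sets passed in CD4 and 0.268% in CD8 cells. For Itgb7 the IL-12 change was -0.08 in CD4 (95% interval -0.73 to 0.56) and 0.27 in CD8 cells (95% interval -0.37 to 0.91).

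Each culture condition against fresh cells is given by its value, with adjusted p-values of the same limma fit for Itgae in CD4 cells. All these differences were below 0, and that of Itgae in CD4 cells did not pass over the 3 conditions together. In CD8 cells the Itgae difference from fresh was -3.13, -3.29 and -3.42 (log2) with IL-2, with IL-4 added and with IL-12 added. For Ccr9 it was -2.22, -2.06 and -2.03 in the same order, and for Itgb7 -2.01, -2.03 and -1.74. In CD4 cells it was -1.35, -2.09 and -1.25 for Ccr9, and -1.36, -1.46 and -1.44 for Itgb7. The smaller CD4 differences of Itgae were -0.41, -0.93 and -0.53, with adjusted p-values of 0.433, 0.0258 and 0.293 in limma. Of these, the difference with IL-4 added passed. Within scan period 1, which holds IL-4 arrays A and B and fresh array A, that difference was -0.81. IL-4 array C, of period 2, was at 306, within the range of IL-2 alone (300 to 370). No fresh CD4 array is of period 2. The contrasts with fresh cells share the fresh arrays of the subset.

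Ordered by level, the groups separate in few places. For Itgae the step from fresh CD8 (2714) to fresh CD4 cells (448) is the single gap between neighbours whose arrays do not overlap, as in 13.3% of all probe sets. For Itgb7, activated B cells (629) stand below the next group, CD8 cells with IL-2 and IL-4 (1883). Cultured CD4 cells with IL-2 (2152) and with IL-12 added (2028) also do not overlap, as in 11.1% of all probe sets, though the fit finds no difference between them. The dimmer Itgb7 probe set overlaps there, and it separates fresh CD4 (2825) from fresh B cells (1082) instead. No share of all probe sets was computed for activated B against CD8 cells with IL-4, or fresh CD4 against fresh B cells. For Ccr9, from fresh CD8 (516) through fresh CD4 (270) to CD4 cells with IL-4 (53.4), all neighbours overlap. The same holds for Madcam1, from activated B (358) to fresh CD8 cells (118).

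Of 26 listed partners in gut homing 11 were used. In CD4 and in CD8 cells 1 of 11 fell and none rose with culture, beside 21.6% and 20.8% of all probe sets that passed. In B cells 1 fell and 1 rose, beside 9.79% of all probe sets. The median change of the 11 was -0.19 in CD4, -0.03 in CD8 and 0.52 in B cells, beside -0.13, -0.07 and 0.09 over all probe sets. Itga4, the partner chain of beta 7, changed by -0.27 ± 0.41 in CD4 (adjusted p = 0.701), by -0.03 ± 0.41 in CD8 (adjusted p = 0.992) and by -0.36 ± 0.51 in B cells (adjusted p = 0.827) in limma. Its signals were low, with group means from 83.4 to 266. Ccl25, the ligand of CCR9, changed by 0.69 in CD4 and 0.20 in CD8 cells and did not pass. Its signals were low too, with group means from 15.4 to 56.5.

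Vcam1, an endothelial and stromal ligand of alpha 4 integrins, changed by -4.47 in CD4, -3.95 in CD8 and -3.42 in B cells, with adjusted p-values of 5.07e-10, 3.65e-09 and 6.13e-06 in limma. Of the growth factor TGF-beta, which is known to induce CD103, Tgfb3 rose by 2.77 ± 0.69 (log2 ± SE) in B cells (adjusted p = 0.00948). The Tgfb3 signals of fresh B cells were low, from 8.6 to 29.8, and are not shown to lie above background. Tgfb1 changed by 1.03 in CD4 cells (adjusted p = 0.0683), and neither of the receptor genes Tgfbr1 and Tgfbr2 passed in a culture comparison. Ccr6, a receptor for CCL20 in gut lymphoid tissue, was 1.93 ± 0.35 higher in fresh B than fresh T cells (adjusted p = 0.000434). It was the single partner that passed there, and none passed between the subsets, fresh or cultured.

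**Figure D3:**
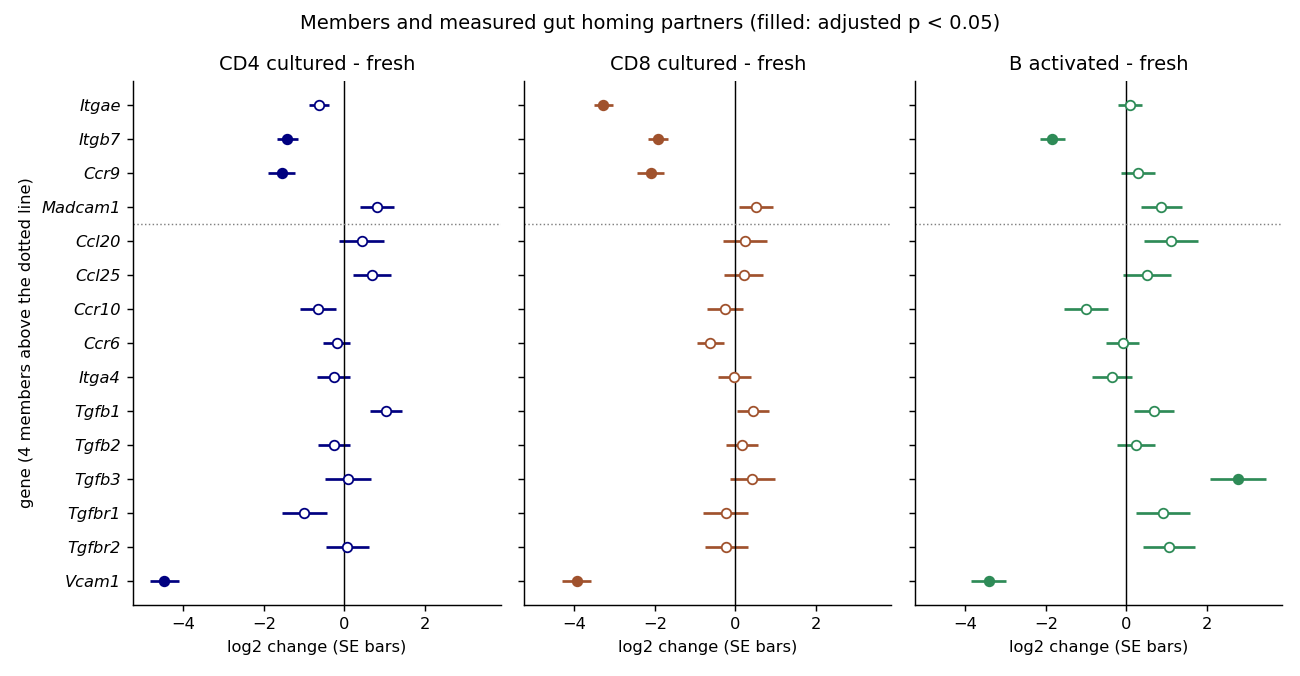
Log2 change with culture (x axis, bars are SE) of the 4 members, above the dotted line, and of 11 gut homing partners in CD4, CD8 and B cells; filled points passed at adjusted p < 0.05. Vcam1 fell in all 3 panels (-3.42 to -4.47), while Itga4 stayed near 0.

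The other measured integrin chains moved both ways. Of 10 chains, 2 rose and 2 fell in each cultured T-cell subset, and 1 fell in B cells, where 21.6% (CD4), 20.8% (CD8) and 9.79% (B) of all probe sets passed. Itgav, the alpha V chain, rose by 1.996 in CD4 (adjusted p = 6.76e-05) and by 3.56 in CD8 cells (adjusted p = 1.06e-08), and Itga3 rose by 1.29 and 1.16. Itgax, the alpha X chain of dendritic cells, changed by -5.04 and -3.59. Itga2 changed by -1.503 in CD4 and Itga6 by -1.46 in CD8 cells, and all of these passed. Of 7 receptors and ligands of inflammatory homing, 3 fell in CD4 cells, and 3 fell and 1 rose in CD8 cells, beside the same 21.6% and 20.8%. Among them Cxcr6 changed by -0.98 in CD4 and -1.99 in CD8 cells, and Cxcr3 by -3.29 in CD8 cells. Of 3 genes of lymph node homing, Cxcr5 fell in both subsets and the others did not pass, against those same shares.

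Some markers of other cell types also fell with culture, beside the 3 members. The summed signal of 4 measured myeloid and dendritic markers (Itgax, Siglece, Siglec1, Cd33) ran from 1823 to 2777 on fresh CD4, 771 to 1293 on fresh CD8 and 148 to 630 on cultured T-cell arrays. Of the 4, 2 fell in CD4 cells, 1 in CD8 cells and 2 in B cells, beside 21.6%, 20.8% and 9.79% of all probe sets that passed. Dendritic cells can carry CD103. Itgax stood at 1651 ± 490 (SD, n = 3) in fresh CD4 and 676 ± 266 (SD, n = 3) in fresh CD8 cells. The summed signal of 3 B-cell markers ran from 1897 to 2679 on fresh CD4, 1169 to 3076 on fresh CD8, 353 to 1010 on cultured T-cell and 20124 to 24976 on fresh B arrays. All 3 fell in both T-cell subsets, and 1 fell in B cells, against those same shares.

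The sum of 4 endothelial and stromal markers ran from 1888 to 5333 on fresh T-cell and 244 to 698 on cultured T-cell arrays. Fresh B arrays were at 2850 to 4083 and activated ones at 685 to 865. Most of that sum was Vcam1 in fresh T cells, with a mean of 3345 of 3803 in CD4 and 1769 of 2224 in CD8 cells. Of the 4, Vcam1 alone passed with culture, beside 21.6% (CD4), 20.8% (CD8) and 9.79% (B) of all probe sets. The one measured NK-cell marker, Klrd1, which activated CD8 T cells also express, was 2.23 (log2) higher in fresh CD8 than in fresh CD4 cells. This difference passed, beside 1.61% of all probe sets. Klrd1 did not pass with culture in either T-cell subset. Without a detection call, the marker signals do not show whether cells of these types were present or absent in a group. The part of these cell types in the changes of Itgae, Itgb7 and Ccr9 was not tested.

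**Figure D4:**
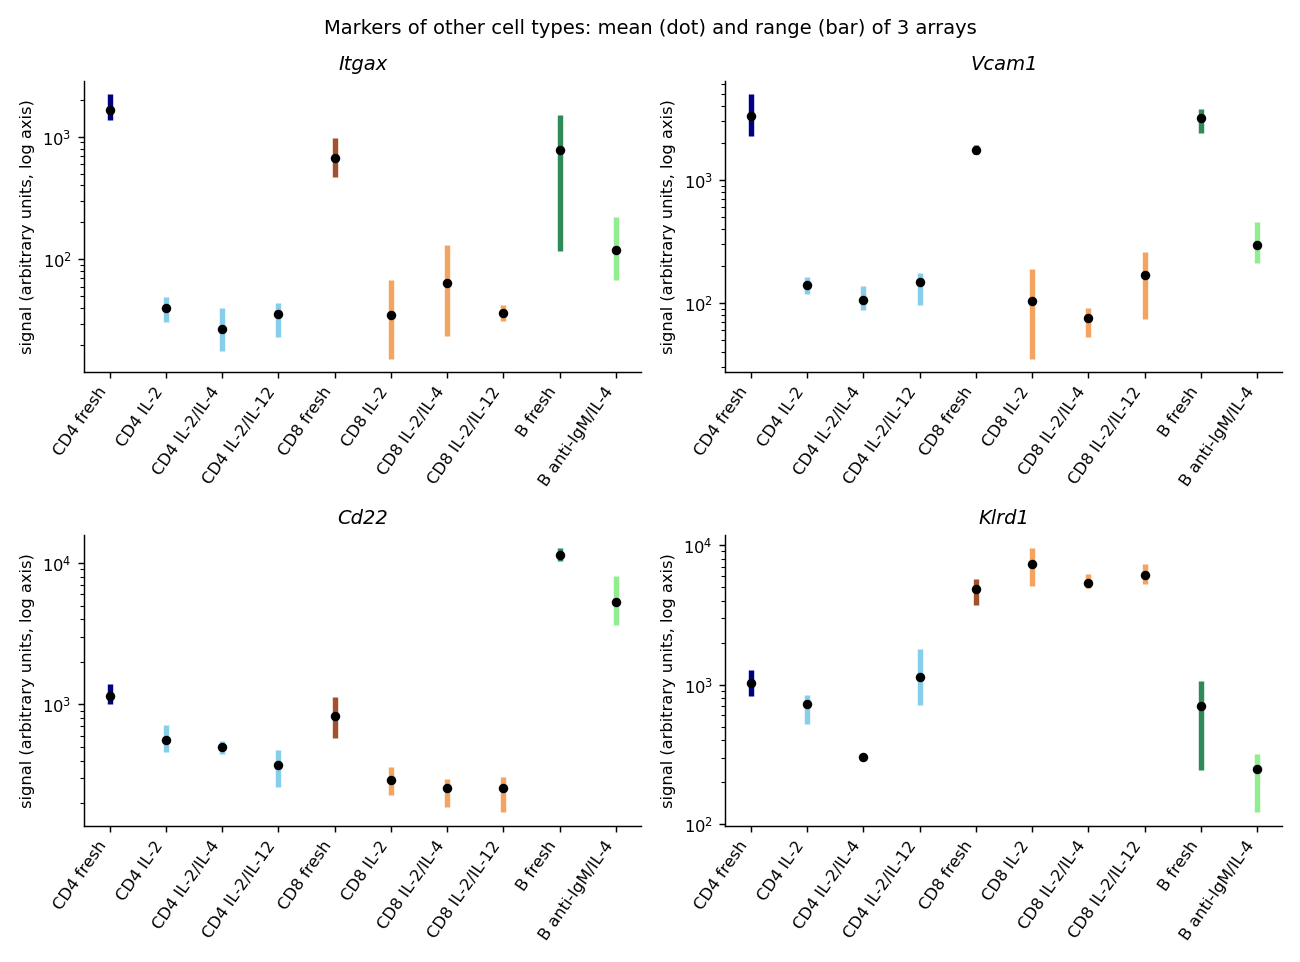
Signal of 4 markers of other cell types (arbitrary units, log axis) in 10 groups; dots are means and bars the range of 3 arrays. Itgax and Vcam1 are high in fresh and low in cultured T cells, and Klrd1 is high in all CD8 groups (3735 to 9522).

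By likeness of pattern over the 10 group means, the gene closest to Itgae among 267 compared was Ccr9, with r = 0.837. Next were Ifnar2, a chain of the type I interferon receptor, at 0.769 and Lta4h, an enzyme of leukotriene synthesis, at 0.747. Closest to Itgb7 were Tmsb10, an actin-binding thymosin, at 0.925, Cxcr3 at 0.870 and Ltb, lymphotoxin beta, at 0.836. Closest to Ccr9 were Il17ra, an IL-17 receptor chain, at 0.851, Hs6st1, a heparan sulfate sulfotransferase, at 0.840 and Fibp at 0.838. Closest to Madcam1 were Chrd, an inhibitor of bone morphogenetic proteins, at 0.916, Nubp1 at 0.900 and Pcbp1 at 0.868. Between members, Itgae and Itgb7 correlated at 0.692, Itgb7 and Ccr9 at 0.532, and Madcam1 at -0.837 with Itgb7. These values describe 10 means from shared arrays and carry no test.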

How the data were processed

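Each of 30 arrays had 1 deposited intensity per probe set, on a linear scale with 1 decimal, which the authors made; which program and scaling was used is not given in the sources used here. Groups and letters came from the array titles. After 6 control probe sets were left out, 746 were tested, of which 449 were named through RefSeq (GRCm38.p6) as 374 genes and 297 stayed unnamed. Values were taken as log2(signal + 16). One model of 10 group means was fitted with limma 3.58.1 (lmFit, eBayes, two-sided) in R 4.3.3, after a check on simulated data. Single genes were also tested by a two-sided exact permutation test over arrays. Signals are means with SD. The members and lists were chosen with earlier results of these data known. Named are the 4 members, the measured gut homing partners (1 gene of the lists is not reported here), up to 4 genes of each other list with the largest change, and the 3 genes most like each member among named genes with a group mean above the median. Alternatives covered pseudocount, scaling, filter, samples fitted, blocks, covariate, probe set and left-out arrays. Promoters came from RefSeq. Python 3.11.15 with pandas 2.3.3, numpy 2.4.6 and matplotlib 3.10.9 was used.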

Additional observations from a re-analysis of the deposited data

Results flagged for a closer look

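The culture effect on Itgae differed between the T-cell subsets by a test of the difference itself. It was -3.28 in CD8 and -0.63 in CD4 cells (log2), and the CD8 effect minus the CD4 effect was -2.65 ± 0.35 (SE), with an adjusted p of 4.57e-05 in limma. Over its 44 alternative fits the difference ran from -3.00 to -2.49 and the adjusted p from 3.58e-06 to 0.0185. All 3 fresh CD8 arrays were above all other arrays, a gap for which no share of all probe sets was computed. The 9 cultured CD8 arrays (197 to 374) overlap with the 9 cultured CD4 arrays (187 to 370). The value is the same as the cultured CD8 minus CD4 difference (-0.10) less the fresh one (2.55). Outside fresh CD8 cells the group means ran from 229 to 448. Without a detection call, how far the signal of CD4 cells could have fallen is not shown.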

How the results depend on the processing

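None of the alternatives reversed a called direction. Of 44 member results, 37 kept their side of the threshold under each alternative with a test; 29 of 1946 such tests lost a call and 5 gained one. The culture changes of Itgae, Itgb7 and Ccr9 in CD8 cells, and the Itgae difference between subsets, kept their calls in limma under each alternative. The exchange of the CD8 arrays with swapped codes, and leaving out both fresh T-cell arrays of letter C, were chosen after seeing the data. With scan day as a block, Ccr9 (-1.46) and Itgb7 (-1.19) in CD4 cells did not pass, and 80 probe sets were called there. The Ccr9 difference of fresh B from T cells (-1.16) did not pass with the actin ratio (-1.06), the letter as a random block (-1.15), the compared groups alone (-1.16), a pseudocount of 1 (-1.25) or scan day (-1.05), and ran from -1.59 to -0.87 without 1 array. Without 1 array the CD4 change of Itgae (-0.63) ran from -0.79 to -0.49. It passed without fresh array A (adjusted p = 0.0473) or IL-4 array C (adjusted p = 0.0425), with the dimmest 40% left out (adjusted p = 0.0424; -0.63) and by the exact permutation test. Madcam1 in CD4 cells passed with median centring (1.12). Itgae between fresh subsets (2.55) did not pass on these groups alone (adjusted p = 0.0830).

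The meaning of the letter is not given, and 9 of 39 same-letter pairs of arrays deviated together (r over 0.1; median 0.039). Between fresh CD4 and fresh CD8 arrays r was 0.197 (A), -0.025 (B) and 0.358 (C). Fresh CD4 array A and fresh CD8 array B, of different letters, were at 0.224. Between fresh and activated B arrays r was 0.163 (G) and 0.172 (K). Whether a letter marks a shared preparation cannot be told from these values. With the letter as a fixed replicate block, Itgae between fresh subsets stayed at 2.55 (adjusted p = 0.166), Itgb7 in B cells was -1.77 (adjusted p = 0.312), and the calls fell to 0 and 1.

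Within single scan periods, without a test, called changes moved by over 1 SD as follows. The cultured T-cell arrays of period 1 are all of IL-2 with IL-4, and periods 3 and 5 hold no fresh CD8 array, so fresh B is set against CD4 only there. In period 1, Ccr9 was -2.40 (CD4), -2.82 (CD8) and -1.89 (fresh B against T), Itgb7 was -2.38 (CD4), -2.23 (B) and -2.004 (fresh B against T), and Itgae between fresh subsets was 3.13. In periods 3 and 5, fresh B against T was -0.40 and -0.41 for Ccr9 and -0.27 and -1.41 for Itgae. In period 5, Itgb7 was -1.32 (B) and -0.37 (fresh B against T). The fresh T-cell array of period 5 is fresh CD4 array C, with the actin ratio of 7.62.

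Centring moved the median change of all probe sets by over 0.1, from -0.13 to 0.18 in CD4 and from -0.07 to 0.13 in CD8 cells, and the higher share of calls from 47.2% to 68.4% and from 49.7% to 60%. Counts of called probe sets moved by over 1.5 times in these cases. For activated B cells 73 became 23 on the compared groups alone and 41 to 85 without 1 array. For the difference between subsets 30 became 18 with centring, 8 with scan day, 15 with scan period, 14 without both C arrays and 14 to 34 without 1 array. For fresh CD8 against CD4 12 became 19 with the random block, 7 with centring, 3 with scan day, 0 on the groups alone and 5 to 17 without 1 array. For cultured CD8 against CD4 72 became 46 with scan day, and for fresh B against T 61 became 32 with scan day or on the groups alone. For IL-4 in CD4 cells 6 became 0 with scan day or on the groups alone and 3 to 7 without 1 array. For IL-12, 1 in CD4 cells became 0 to 3 and 2 in CD8 cells became 0, 1 or 4, and 1 to 3 without 1 array. The number of arrays limits the precision, and dim signals have no detection call.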
